A study of Drosophila melanogaster with 12 samples.

Results

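Drosophila eye discs in which activated Ras and an RNAi construct aimed at the noncoding RNA hsrω were expressed together were compared with control discs, gene by gene. A gene entered when the authors' table gave its test the status OK and both groups had at least 1 FPKM (sequenced fragments scaled by transcript length and library size). This rule kept 8941 of 15904 gene rows, of which 459 name more than 1 gene at a locus. The value followed throughout is the log2 ratio of RasV12 with hsrω RNAi over control.

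The series holds 12 samples, 3 in each of 4 groups, of total RNA from eye discs of wandering larvae in the third instar, with 30 pairs of discs per preparation. The control was w1118; sev-GAL4/UAS-GFP; dco2/+. The group of interest was w1118; sev-GAL4/UAS-GFP; UAS-hsrωRNAi/UAS-RasV12. The other two groups are shown beside them, RasV12 alone (sev-GAL4/UAS-GFP, UAS-RasV12/dco2) and RasV12 with EP3037, an insertion at hsrω (sev-GAL4/UAS-GFP; EP3037/UAS-RasV12). Every group thus carried w1118, the sev-GAL4 driver and UAS-GFP. The allele dco2 was present in the control and in RasV12 alone but not in the other genotypes. Between the control and the hsrω RNAi group, its absence and the presence of RasV12 and the RNAi construct therefore cannot be told apart. RasV12 alone differed from the control by RasV12, with dco2 in both. The driver is active in cells that express sevenless, a minority of the disc, while RNA was taken from whole discs, and in such bulk samples fewer cells of a type and less RNA per cell cannot be told apart.

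Sevenless is a receptor tyrosine kinase that switches on Ras and the MAPK cascade in the precursor of the R7 photoreceptor. RasV12 is locked in its active form, and in sev-GAL4 cells it drives additional cells into the R7 fate without a signal from the receptor. The gene hsrω makes nuclear transcripts that organise omega speckles, which store heterogeneous nuclear ribonucleoproteins (hnRNPs) and other RNA-processing proteins.

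Each level is the authors' single FPKM for a gene in a group, pooled by Cuffdiff, so it has no SD, and the read depth is unknown. Replicates are separate samples by their labels, with no statement on crosses, and the p-values may therefore cover technical spread alone. A gene is said to have risen or fallen when its q in the authors' deposited Cuffdiff table was at or under 0.05. The smallest q in that table was 0.00789, and a call printed with no q had this value. Eye identity was checked with 25 eye disc marker genes. Of these, 24 were at 1 FPKM or more in both groups, among them eya, so, ey, ato and elav, while ninaE, the opsin of mature outer photoreceptors, was at 0.29 FPKM in the control and 0.343 FPKM with hsrω RNAi.

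The manipulated genes were read first. Ras85D (chromosome 3R, 9510561 to 9513067, minus strand, Ensembl annotation on dm6 coordinates), the Ras gene whose reads can also come from the transgene, was at 74.4 FPKM in the control and 151 FPKM in RasV12 with hsrω RNAi. It rose 2.03-fold, a log2 ratio of 1.02. In RasV12 alone it was at 121 FPKM and in RasV12 with EP3037 at 142 FPKM, so all 3 RasV12 groups stood above the control. The level in RasV12 alone was not called against the control (q = 0.0509 in the authors' deposited table), while that with EP3037 was.

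Hsromega, the gene of hsrω (noncoding, plus strand of 3R, 21296127 to 21317836), had a level of 543 FPKM in control discs and 398 FPKM in the group labelled hsrω RNAi. Its log2 ratio of -0.45 was not called (p = 0.545 in the authors' deposited table). In RasV12 alone it was at 389 FPKM, and in RasV12 with EP3037 at 606 FPKM. In whole discs it was thus 1.36-fold lower than in the control without passing the test, and it stood next to RasV12 alone. The deposited row does not separate the nuclear from the cytoplasmic transcripts of hsrω.

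The receptor gene sev (X, 11071441 to 11086299, minus strand, overlapping 1 other gene) rose from 22.6 to 36.8 FPKM, a 1.63-fold difference (q = 0.0359 in the authors' deposited table). RasV12 alone had 28.4 FPKM and RasV12 with EP3037 29 FPKM. The longest transcript of sev has 8171 nt. With the trend over transcript length subtracted, as described below, its log2 ratio of 0.70 became 0.36. For dco, the kinase gene named in the control genotype and looked up after the values were seen, the level was 37.7 FPKM in the control and 43.0 FPKM with hsrω RNAi, with p = 0.323 in the authors' deposited table.

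Across all 8941 genes the median log2 ratio was -0.01, and 7636 of them, 85.4%, lay within 0.5 of 0. The 5th and 95th percentiles were -0.51 and 0.67. In the authors' test 161 genes were called, 1.8% of those tested, of which 115 (1.29%) had risen and 46 (0.514%) had fallen. At an unadjusted p of 0.05, 544 genes were higher and 261 lower.

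The rises and falls differed in shape. The 115 rises were moderate, between 1.62-fold and 6.43-fold with a median of 1.91-fold, and 45 of them (39.1%) reached 2-fold. The 46 falls ran from 1.58-fold to 101-fold with a median of 2.37-fold, and 30 of them (65.2%) reached 2-fold. A change of 2-fold or more was seen in 235 genes, and 75 of these were called. Levels in the control had a median of 12.0 FPKM for the genes that rose, 24.4 FPKM for those that fell and 14.7 FPKM for all genes.

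**Figure D1:**
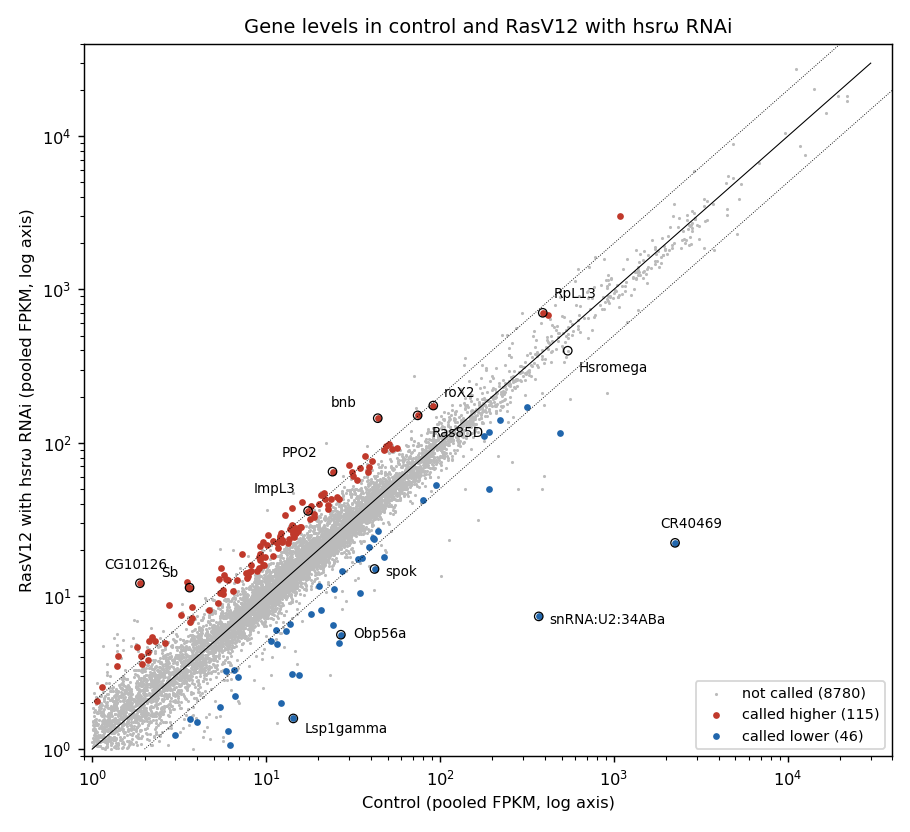
Pooled FPKM of 8941 genes in the control (horizontal, log axis) and in RasV12 with hsrω RNAi (vertical, log axis), 1 point per gene, with called rises in red, called falls in blue, the line of equal levels and dotted lines at 2-fold. Most of the 115 rises lie close to the upper dotted line, while CR40469 and snRNA:U2:34ABa lie far below the rest.

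The same test called 46 to 182 genes in the comparisons around this one. Control against RasV12 alone gave 62 of 8962 genes (0.692%; 37 higher and 25 lower). Control against RasV12 with EP3037 gave 46 of 9011 (0.51%; 20 higher and 26 lower). RasV12 alone against RasV12 with hsrω RNAi gave 74 of 9061 (0.817%; 17 higher and 57 lower), and RasV12 alone against RasV12 with EP3037 gave 67 of 9052 (0.74%; 12 higher and 55 lower). RasV12 with hsrω RNAi against RasV12 with EP3037 gave 182 of 9077 (2.01%), more than the 161 here, with 20 higher and 162 lower with EP3037. These comparisons share samples, and the difference between their counts was not tested. The SD of the log2 ratio was 0.41 here, 0.35 for control against RasV12 alone and 0.39 for hsrω RNAi against EP3037.

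The largest rise was that of CG10126 (3R, 12855544 to 12859246), from 1.88 to 12.1 FPKM, or 6.43-fold. RasV12 alone had 1.15 FPKM and RasV12 with EP3037 4.20 FPKM, so the high level was that of the hsrω RNAi group. CG9119 followed with a rise from 3.49 to 12.3 FPKM (3.53-fold, q = 0.014 in the authors' deposited table). Next came bnb (X, 18794246 to 18797687), which encodes an acidic protein of glial cells and rose 3.29-fold, from 43.9 to 144 FPKM. RasV12 alone also had a high bnb level, 109 FPKM, whereas RasV12 with EP3037 was at 35.1 FPKM, below the control.

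The other large rises fell into a few patterns over the 4 groups. CG18547 was at 3.56 FPKM in the control and at 12.1, 11.4 and 19.0 FPKM in RasV12 alone, with hsrω RNAi and with EP3037. It was therefore high wherever RasV12 was present. Mrtf, a coactivator of serum response factor in actin signalling, rose 2.60-fold, from 7.22 to 18.8 FPKM, with 14.3 FPKM in RasV12 alone and 8.86 FPKM with EP3037. CG3523, the fatty acid synthase gene FASN1, rose 2.63-fold, from 12.8 to 33.7 FPKM, and stood at 25.3 FPKM in RasV12 alone and 19.8 FPKM with EP3037, above the control. The noncoding row CR40963, which was not matched to the annotation, went from 1091 to 2996 FPKM (2.75-fold), with 2258 FPKM in RasV12 alone and 985 FPKM with EP3037. For Mrtf and CR40963 the level with EP3037 was near that of the control. CG45105 rose 3.12-fold, from 2.77 to 8.66 FPKM, and CG13840 rose 2.86-fold, from 1.41 to 4.02 FPKM (q = 0.0469 in the authors' deposited table).

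The largest falls were those of CR40469 and snRNA:U2:34ABa, both small noncoding RNAs. CR40469, a noncoding RNA of 214 nt on the X (122493 to 122706), was at 2249 FPKM in the control and 22.2 FPKM with hsrω RNAi, a 101-fold fall. RasV12 alone had 27.8 FPKM and RasV12 with EP3037 31 FPKM, so the control stood apart from all RasV12 groups. The same held for snRNA:U2:34ABa (2L, 13211925 to 13212116), a copy of the U2 spliceosomal RNA gene, which fell 50.3-fold from 370 to 7.35 FPKM and was at 15.8 FPKM in RasV12 alone. The U2 copies are nearly identical, so the assignment of reads to this copy is uncertain. A longer noncoding RNA, the antisense RNA CR45108 of 2167 nt, fell from 6.17 to 1.06 FPKM.

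Among the protein-coding genes that fell most, CG12643 (X, 10264233 to 10265263) went from 26.3 to 4.91 FPKM, or 5.35-fold. It was at 8.42 FPKM in RasV12 alone and at 23.2 FPKM with EP3037. The noncoding rows CR40976 and CR42861 had a like order, with 193 and 24.2 FPKM in the control, 49.7 and 6.43 FPKM with hsrω RNAi, and 180 and 22.6 FPKM with EP3037. CR40976 was already at 61.1 FPKM in RasV12 alone, while CR42861 was at 17.9 FPKM there. The remaining large falls, of Lsp1gamma, Lsp2, Fbp1, Obp99b, Obp56a and Obp56d, belong to the fat body and odorant-binding groups described further on.

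Photoreceptor fate genes were called in 1 direction. Of 40 such genes, 4 rose and none fell, beside 1.29% rises over all genes. Rises took 2.67% of genes with transcripts of 4000 to 8000 nt and 12.3% at 8000 nt or more. The list had a median log2 ratio of 0.24 against -0.01 over all genes. A further 11 were higher at an unadjusted p of 0.05 without being called, and none was lower at that level. The transcripts of this list are long (median 4465 nt), and with the trend over transcript length subtracted, as described below, the median was 0.17.

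The genes that rose were the zinc finger genes salm and salr, the nuclear receptor gene svp, and sev. The factor salm, used in the R7 and R8 inner photoreceptors, rose from 11.6 to 20.6 FPKM (1.77-fold) and was at 16.6 FPKM in RasV12 alone and 11.6 FPKM with EP3037. Its neighbour and paralogue salr rose from 9.59 to 16 FPKM (q = 0.0192 in the authors' deposited table). The row of svp, a receptor of the R3, R4, R1 and R6 cells that is named together with CG44037, rose 2.27-fold, from 9.26 to 21.1 FPKM. RasV12 alone had 14.7 FPKM and RasV12 with EP3037 14.1 FPKM in that row. Genes of the first steps were not called. The R8 founder gene ato was at 47.8 and 45.6 FPKM, and sens, which acts after ato, at 8.85 and 8.14 FPKM.

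Some R7 genes lay well above the control without being called. The homeobox gene pros, a marker of R7 and cone cells, was at 3.28 FPKM in the control and 7.81 FPKM with hsrω RNAi, a log2 ratio of 1.25, with p = 0.0295 and q = 0.63 in the authors' deposited table. The adaptor gene phyl, which brings the ligase Sina to the repressor Tramtrack, was at 10.5 and 17.3 FPKM (q = 0.119 in the authors' deposited table). The runt factor gene run was at 1.86 and 3.62 FPKM (q = 0.183 in the authors' deposited table). For all 3 genes RasV12 alone lay between the control and the hsrω RNAi group, at 5.20, 11.0 and 2.51 FPKM.

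Of 34 genes for Egfr ligands, targets and feedback, 2 rose and none fell, beside 1.29% rises over all genes. The list's median transcript was 3983 nt, and rises took 1.01% of genes of 2000 to 4000 nt and 2.67% of 4000 to 8000 nt. The median log2 ratio was 0.21, and 0.09 with the length trend subtracted. Sprouty, the feedback inhibitor of receptor tyrosine kinase signalling, is encoded by sty, which rose 1.87-fold, from 40.4 to 75.7 FPKM. RasV12 alone had 49.8 FPKM and RasV12 with EP3037 56.7 FPKM, so the hsrω RNAi group was the highest. The Iroquois homeobox gene mirr rose 1.79-fold, from 7.95 to 14.2 FPKM. Among the nuclear effectors, the repressor genes aop and cic were at 68.1 and 35.2 FPKM in the control and 106 and 57 FPKM with hsrω RNAi, with q values of 0.193 and 0.203 in the authors' deposited table. The row of the activator pnt was at 38.4 and 53.5 FPKM and that of rno, which restrains Egfr signalling in the eye, at 14.5 and 24.3 FPKM. Neither was called, rno with q = 0.0545 in the authors' deposited table.

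Within the Ras MAPK cascade itself, 1 of 39 genes rose, Ras85D, and the list had a median log2 ratio of 0.11. In the retinal determination network mirr was the 1 riser among 25 genes. The cone and pigment cell list had 1 riser among 25, Traf4, a signalling adaptor also counted with the JNK genes, which went from 26.4 to 42.8 FPKM (q = 0.0284 in the authors' deposited table).

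**Figure D2:**
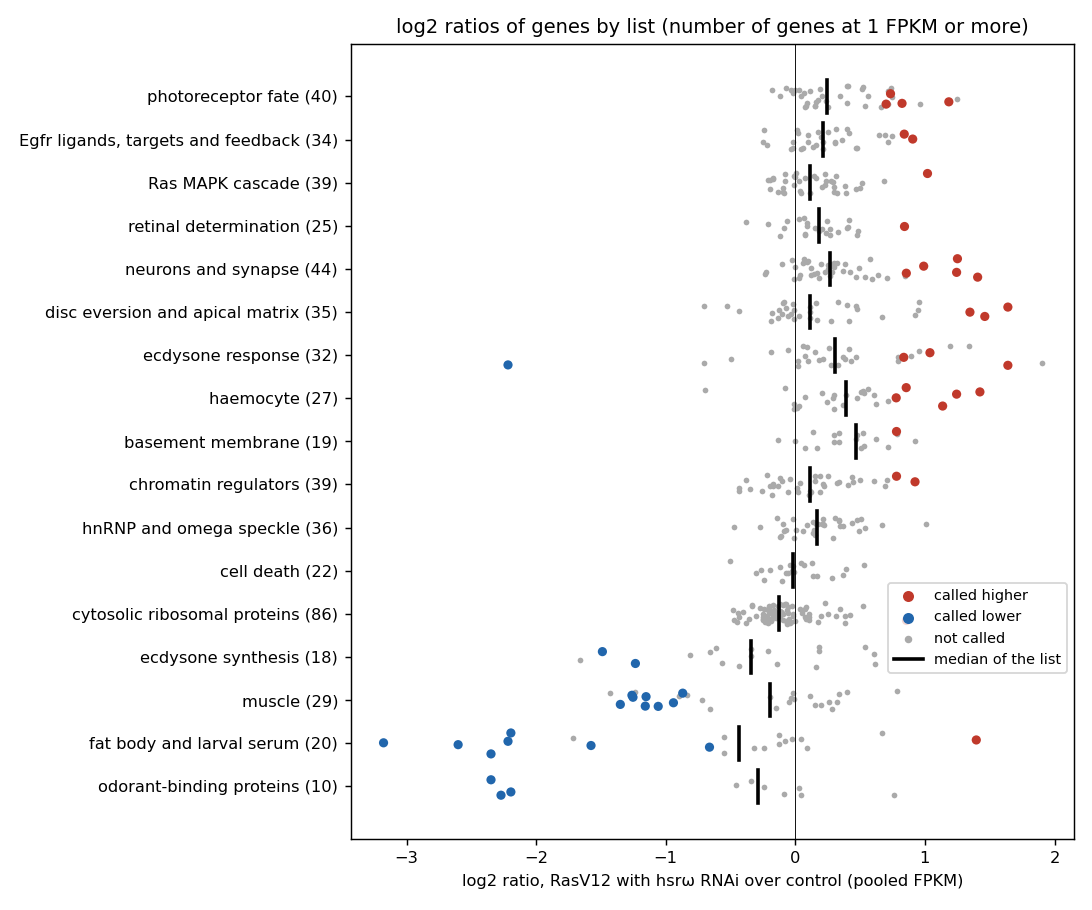
log2 ratio of RasV12 with hsrω RNAi over control (horizontal) for the genes of 17 lists, 1 point per gene with at least 1 FPKM in both groups, called rises in red, called falls in blue and a black bar at each list's median. The photoreceptor, neuronal, haemocyte and basement membrane lists have medians of 0.24, 0.27, 0.39 and 0.47, while those of muscle, ecdysone synthesis and fat body are -0.20, -0.34 and -0.43.

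The lists of other signalling pathways, cell death and the cell cycle held at most 1 call each, beside 1.8% of all genes called. None of 33 Notch genes was called, with mam, the coactivator of Notch, at 27.3 and 47.1 FPKM (q = 0.148 in the authors' deposited table) and a list median of -0.03. Brd, a small inhibitor of Notch signalling that was chosen after its value was seen, fell from 179.6 to 111 FPKM (q = 0.0359 in that deposited table). Among 42 Hedgehog, Dpp and Wg genes Apc, part of the complex that destroys Armadillo, rose from 9.67 to 15.9 FPKM (q = 0.0325 in the authors' deposited table). In the Hippo pathway kibra, an upstream activator, rose 1.95-fold, from 5.64 to 11.0 FPKM, the 1 call among 27. None of the 10 JAK-STAT genes was called, although all 10 had a log2 ratio above 0, from 0.07 to 0.56. Their median transcript was 4538 nt, and their median log2 ratio was 0.31 (0.20 with the length trend subtracted). Cell death genes, 22 in number, had no call, and the death gene rpr had 15.4 FPKM in the control and 10.9 FPKM with hsrω RNAi, p = 0.0628 in the authors' deposited table. Cell cycle genes, 49 in number, had none either, with the mitotic phosphatase gene stg at 106 and 158 FPKM (q = 0.23 in the authors' deposited table).

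Neuronal and synaptic genes rose in 5 of 44 cases and fell in none, beside rises of 1.29% over all genes, 2.67% among genes with transcripts of 4000 to 8000 nt and 12.3% at 8000 nt or more. The list's median log2 ratio was 0.27. It was 0.05 with the length trend subtracted, the median transcript here being 6514 nt. The pan-neural repressor gene scrt (3L, 3983896 to 3994003) rose 2.38-fold, from 29.9 to 71.2 FPKM, with 46.0 and 45.7 FPKM in RasV12 alone and with EP3037. The row of futsch, a microtubule-associated protein of axons that is named together with Gr2a, rose 2.65-fold, from 14.2 to 37.5 FPKM. Dscam1, an axon guidance receptor, rose from 5.74 to 13.6 FPKM, the Robo ligand gene sli from 21.7 to 43.2 FPKM and the active zone gene brp from 5.67 to 10.3 FPKM. Each of these had its intermediate level in RasV12 alone (27.6, 11.2, 35 and 9.57 FPKM) and a level close to the control with EP3037 (17.9, 6.0, 22.5 and 6.10 FPKM). The general neuronal marker elav was at 41.8 and 60.8 FPKM without being called. Glial genes had 1 riser among 14, bnb, while the glial factor repo was at 4.66 and 4.80 FPKM.

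Ecdysone response genes moved in both directions. Of 32 such genes, 3 rose and 1 fell, beside 1.29% rises and 0.514% falls over all genes. Rises took 2.67% of genes with transcripts of 4000 to 8000 nt and 12.3% at 8000 nt or more. The list's median transcript was 4856 nt, and its median log2 ratio was 0.30 (0.12 with the length trend subtracted). Ecdysone is the steroid whose pulse at the end of larval life starts disc eversion and metamorphosis. Sb, the transmembrane protease Stubble that discs need to evert, rose 3.12-fold, from 3.63 to 11.3 FPKM, with 4.99 FPKM in RasV12 alone and 7.02 FPKM with EP3037. The nuclear receptor gene Eip75B rose from 39 to 69.7 FPKM (q = 0.0284 in the authors' deposited table). ImpL3, the lactate dehydrogenase gene (3L, 6259105 to 6262694), rose 2.05-fold, from 17.4 to 35.8 FPKM, while it was at 6.92 FPKM in RasV12 alone and 9.16 FPKM with EP3037. The hsrω RNAi group was thus above the control for ImpL3 and the remaining RasV12 groups below it. Fbp1, a receptor for larval serum protein in the fat body, fell 4.65-fold.

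Early and early-late genes of the cascade had large differences that were not called between the control and the hsrω RNAi group. Hr4 was at 5.40 FPKM in the control and 20.2 FPKM with hsrω RNAi (q = 0.383 in the authors' deposited table), Blimp-1 at 13 and 32.9 FPKM (q = 0.0545 in that deposited table) and br at 260.0 and 450.3 FPKM (q = 0.756 in that deposited table). In RasV12 alone these genes were at 17.0, 31 and 397 FPKM. There Hr4 and Blimp-1 were called higher than in the control, each with q = 0.00789 in the authors' deposited table, while br was not called. Besides Sb, the disc eversion and apical matrix list held 2 more risers among 35 genes, beside 1.29% rises over all genes. The matriptase-like protease gene Np rose 2.75-fold, from 5.49 to 15.1 FPKM, and tnc, which encodes the matrix protein Tenectin, rose 2.54-fold, from 16.1 to 40.9 FPKM, for which the authors' deposited table had q = 0.0359. Both were high in RasV12 alone, at 11.6 and 42.9 FPKM, and near the control with EP3037, at 4.98 and 14.1 FPKM.

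**Figure D3:**
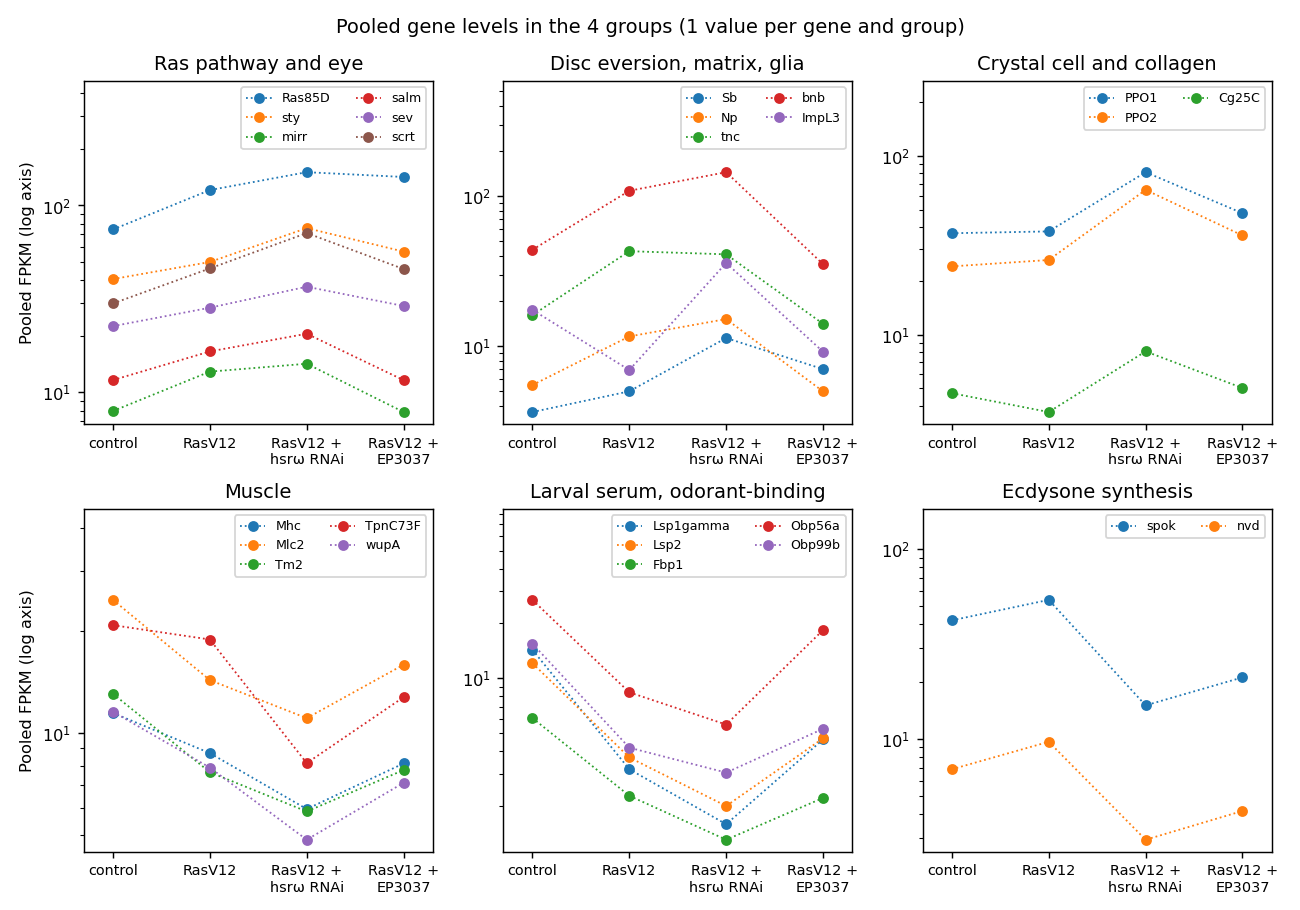
Pooled FPKM (vertical, log axis) of 26 called genes in the control, RasV12 alone, RasV12 with hsrω RNAi and RasV12 with EP3037, 1 point per gene and group with dotted lines joining each gene. PPO1, PPO2 and ImpL3 are highest with hsrω RNAi, and the serum protein genes are highest in the control. The genes spok and nvd are low with hsrω RNAi and with EP3037, the groups without dco2.

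Genes of blood cells (haemocytes) rose in 5 of 27 cases and fell in none among those at 1 FPKM or more. Rises took 1.29% of all genes, 2.67% of those with transcripts of 4000 to 8000 nt and 12.3% at 8000 nt or more. The median transcript of the list was 4459 nt. The list's median log2 ratio was 0.39 (0.19 with the length trend subtracted). The 2 prophenoloxidase genes of crystal cells moved together. PPO1 rose 2.20-fold, from 37.0 to 81.3 FPKM, and PPO2 rose 2.68-fold, from 24.1 to 64.7 FPKM. RasV12 alone was at 37.8 and 26.2 FPKM, close to the control, and RasV12 with EP3037 at 47.9 and 35.9 FPKM. Cg25C, a collagen IV chain made largely by haemocytes and fat body, rose from 4.69 to 8.04 FPKM (q = 0.014 in the authors' deposited table). The other genes that rose, Dscam1 and peb, also act in neurons and in the eye. The plasmatocyte receptor gene NimC1 went the other way, from 2.20 to 0.529 FPKM (q = 0.0325 in the authors' deposited table), and was at 0.322 FPKM in RasV12 alone. Of 34 haemocyte rows none was listed at 0, and their summed level was 549 FPKM in the control, 559.8 in RasV12 alone, 735.5 with hsrω RNAi and 584 with EP3037. Haemocytes attach to discs, and their part in these rises was not tested.

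The basement membrane list overlaps that of haemocytes. Of its 19 genes 18 had a log2 ratio above 0, with a median of 0.47 (0.19 with the length trend subtracted). Cg25C was the 1 call. Its partner chain vkg was at 4.35 and 7.15 FPKM (q = 0.0509 in the authors' deposited table), LanB2, a laminin chain, at 26.4 and 40.6 FPKM (q = 0.116 in that deposited table) and the matrix protease gene Mmp1 at 6.85 and 13 FPKM (q = 0.214 in that deposited table).

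Muscle genes fell in 8 of 29 cases and rose in none, beside 0.514% falls over all genes, and 9 of the 29 had a log2 ratio above 0. Those that fell encode parts of the sarcomere: the myosin heavy chain Mhc, the light chains Mlc1 and Mlc2, tropomyosin Tm2, the troponins up, wupA and TpnC73F, and the giant kinase bt. TpnC73F fell 2.55-fold, from 20.7 to 8.14 FPKM, with 18.8 FPKM in RasV12 alone. Mhc fell 1.92-fold, from 11.4 to 5.96 FPKM, and Mlc2 fell 2.23-fold, from 24.6 to 11.0 FPKM. For Mhc the levels in RasV12 alone and with EP3037, 8.71 and 8.12 FPKM, lay between these. Mlc1 and wupA had q = 0.014 in the authors' deposited table. Other sarcomere genes were lower without being called: Mf was at 31 and 16.7 FPKM (q = 0.524 in the authors' deposited table), Mlp60A at 10.8 and 4.01 FPKM (q = 0.339 in that deposited table) and Prm, the paramyosin gene, at 4.06 and 2.46 FPKM (q = 0.34 in that deposited table). The integrin gene mys, at 55.1 and 54.8 FPKM, and Tm1, at 250.5 and 247 FPKM, were not called either. The median log2 ratio of the list was -0.20 (-0.15 with the length trend subtracted), and its summed level over 34 rows was 904 FPKM in the control, 858 in RasV12 alone, 828 with hsrω RNAi and 817 with EP3037. Adult muscle precursors and larval muscle are not part of the eye field, and their part in these falls was not tested.

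Fat body and larval serum genes fell in 7 of 20 cases, beside 0.514% falls over all genes, and 1, CG3523, rose. Lsp1gamma (3L, 66430 to 68995), a larval serum storage protein, fell 9.05-fold, from 14.3 to 1.59 FPKM. Lsp2 fell 6.07-fold, from 12.1 to 1.99 FPKM, and Lsp1beta 2.98-fold, from 6.65 to 2.23 FPKM, while Lsp1alpha, under 1 FPKM with hsrω RNAi, went from 7.10 to 0.907 FPKM. Of these, Lsp1gamma was at 3.17 FPKM in RasV12 alone and 4.62 FPKM with EP3037, and Lsp2 at 3.68 and 4.69 FPKM, so the control held the highest level of both. CG31997, the most abundant of the called genes on this list, fell from 222 to 140.3 FPKM (q = 0.0359 in the authors' deposited table). The list's 31 rows summed to 1431 FPKM in the control, 1563 in RasV12 alone, 1079 with hsrω RNAi and 1330.0 with EP3037, and Jhe was the row listed at 0 with hsrω RNAi.

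Odorant-binding protein genes, which larval fat body and other tissues use for secreted carriers, fell in 3 of 10 cases, beside 0.514% falls over all genes. Of these, Obp99b and Obp56d are also on the fat body list and are counted in its 7 falls. Obp56a fell 4.83-fold, from 26.9 to 5.58 FPKM, Obp99b 5.09-fold, from 15.5 to 3.04 FPKM, and Obp56d 4.58-fold, from 14.1 to 3.09 FPKM. The abundant Obp99a, at 327 and 276 FPKM, was not called. Fat body adheres to dissected discs, and its part in these falls was not tested.

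Ecdysone synthesis genes of the ring gland fell in 2 of 18 cases, beside 0.514% falls over all genes, and none rose. The Halloween P450 gene spok (3R, 3322810 to 3354486) fell 2.81-fold, from 42.0 to 15.0 FPKM, and nvd, the oxygenase that starts ecdysone synthesis from cholesterol, fell 2.35-fold, from 6.90 to 2.93 FPKM (q = 0.0325 in the authors' deposited table). RasV12 alone was above the control for both, at 53.9 and 9.63 FPKM, and RasV12 with EP3037 at 21.0 and 4.16 FPKM. The groups low for spok and nvd are those without dco2, whose absence cannot be told apart from hsrω RNAi and EP3037. Further enzymes lay lower without being called: phm was at 28.4 and 18.0 FPKM (q = 0.163 in the authors' deposited table), sad at 30.8 and 20.2 FPKM, and GstE14, a glutathione transferase needed for ecdysone synthesis, at 5.13 and 1.62 FPKM (q = 0.114 in that deposited table). Of the 18 genes 6 had a log2 ratio above 0, and at an unadjusted p of 0.05 there were 2 higher and 4 lower. The higher ones encode the zinc finger proteins mld, at 18.4 and 28 FPKM, and woc, at 34.9 and 50.7 FPKM (q = 0.265 and 0.759 in the authors' deposited table). The list's median log2 ratio was -0.34 and its summed level over 21 rows was 289 FPKM in the control, 356 in RasV12 alone, 248 with hsrω RNAi and 212 with EP3037. The ring gland is not part of the disc, and its part in these falls was not tested. Salivary gland genes had no call among 5, with the glue gene Sgs7 at 15.1 and 3.60 FPKM (q = 0.111 in the authors' deposited table).

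The count of falls depended on these tissue lists. Without the genes on the haemocyte, fat body, salivary gland, muscle, midgut, ecdysone synthesis and odorant-binding lists, an alternative chosen after seeing the data, 28 genes had fallen in place of 46.

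Genes for proteins that omega speckles hold had no call. None of 36 hnRNP and speckle genes passed the test, and their median log2 ratio was 0.17 (0.11 with the length trend subtracted). The abundant hnRNP genes Hrb87F and Hrb98DE were at 101 and 142 FPKM in the control and 125 and 174 FPKM with hsrω RNAi. The largest difference was that of sm, an RNA-binding gene with long transcripts, at 10.7 and 21.5 FPKM (q = 0.189 in the authors' deposited table), and RasV12 alone had a like level of 21.9 FPKM. Of 213 box snoRNA rows, 1 fell, a row that names CG13900, CR45184 and snoRNA:Me5.8S-G74 together and went from 490 to 115 FPKM, so the fall cannot be given to the snoRNA. Spliceosomal snRNAs, 22 in number, had the fall of snRNA:U2:34ABa as their 1 call. None of 79 microRNA rows and none of 19 small RNA pathway genes was called.

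Chromatin genes rose in 2 of 39 cases, beside 1.29% rises over all genes. The share was 2.67% among genes with transcripts of 4000 to 8000 nt and 12.3% at 8000 nt or more. The list's median log2 ratio was 0.11, and 0.06 with the length trend subtracted. At an unadjusted p of 0.05, 7 were higher and 2 lower, the latter including HP1b, a heterochromatin protein gene, at 59.1 and 43.6 FPKM (q = 0.573 in the authors' deposited table). Both risers belong to the Brahma complex, a SWI/SNF remodeller. Its ATPase gene brm rose from 25.6 to 44.0 FPKM (q = 0.0192 in the authors' deposited table) and osa from 31.8 to 60.3 FPKM (q = 0.0284 in that deposited table). Another subunit gene, Bap170, picked out after its value was seen, rose 1.97-fold, from 13.8 to 27.2 FPKM. In RasV12 alone the 3 genes were at 38, 48.3 and 23.4 FPKM and with EP3037 at 24.2, 31 and 12.5 FPKM, close to the control.

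Large housekeeping families had medians just below 0. Of 86 cytosolic ribosomal protein genes, 66 had a log2 ratio below 0 with a median of -0.13, which became -0.01 when the length trend was subtracted. The 1 call went the other way, RpL13, which rose from 390.0 to 704 FPKM (q = 0.024 in the authors' deposited table). Mitochondrial ribosomal protein genes had no call among 73 (median -0.17, and -0.04 with the length trend subtracted), and proteasome genes none among 33 (median -0.07).

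The metabolic and stress lists held at most 2 calls each within the 1 FPKM rule, beside 1.8% of all genes called. Besides ImpL3, the glycolytic aldolase gene Ald rose 1.86-fold, from 47.7 to 89 FPKM. These were 2 of 21 glycolysis genes, beside 1.29% rises over all genes. The detoxification gene GstD1 was the 1 call among 25 glutathione transferase genes. It rose from 415 to 678 FPKM (q = 0.0399 in the authors' deposited table), and it was also high in RasV12 alone and with EP3037, at 707 and 747 FPKM. The heat shock gene Hsp70Bb, the 1 call among 22 heat shock and chaperone genes within the rule, rose from 12.2 to 25.9 FPKM. The adjacent copy Hsp70Bc, outside the rule, went from 3.70 to 0.336 FPKM and was called lower. These copies are nearly identical, and the split of reads between them is uncertain. Of 30 cuticle genes Cpr51A fell, from 95 to 53 FPKM (q = 0.024 in the authors' deposited table). The dosage compensation RNA roX2 (X, 11579065 to 11580432) was the 1 call among 17 roX, MSL and sex genes. It rose 1.91-fold, from 91.5 to 175 FPKM, but was higher still in RasV12 alone, at 517 FPKM. The labels do not give the sex of the larvae, and the roX RNAs are made in males. A share of males that differed between groups was not tested. No gene was called among 15 phototransduction, 29 insulin and TOR, 23 immune, 7 histone and 4 midgut enzyme genes. Of 25 antennal and peripodial genes ems, a homeobox gene of the head, rose from 7.67 to 14 FPKM.

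The log2 ratio followed transcript length. Genes with a longest annotated transcript of 8000 nt or more, 284 in number, had a median log2 ratio of 0.42, and 257 of them (90.5%) lay above 0. The median was 0.15 for transcripts of 4000 to 8000 nt, 0.00 for 2000 to 4000 nt, -0.08 for 1000 to 2000 nt and -0.13 for 500 to 1000 nt. Under 500 nt, where small noncoding RNAs are found, it was -0.03. The share of genes that rose went up from class to class, starting from 0 of 580 genes under 500 nt. In that shortest class 4 genes (0.69%) fell, so calls there did not follow the order of the medians. Of the genes of 8000 nt or more, 35 (12.3%) rose and 1 fell, whereas of the 1280 genes of 500 to 1000 nt, 2 rose and 10 fell.

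The genes that rose were long. Their median transcript was 5252.5 nt, against 1918 nt for all genes and 1656 nt for those that fell, and 70 of the 112 risers with a known length (62.5%) had 4000 nt or more, compared with 17.9% of all genes. Long risers included HERC2, from 6.80 to 12.8 FPKM, puf, a ubiquitin-specific protease, from 11.0 to 22.9 FPKM, and uif, an apical membrane protein, from 31 to 64.6 FPKM, all chosen after their values were seen. With the running median over length subtracted, the median of the 112 risers was 0.81 in place of 0.93, and the lowest was at 0.36. This adjustment was chosen after seeing the data. The risers had been called on the ratios before subtraction, the smallest of which was 0.70. Their values after it are therefore no test of a rise apart from length.

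Other comparisons differed over transcript length in size and in shape. The median log2 ratio of genes of 8000 nt or more was 0.28 for RasV12 alone over control, -0.05 for RasV12 with EP3037 over control and 0.15 for RasV12 with hsrω RNAi over RasV12 alone. It was -0.31 for RasV12 with EP3037 over RasV12 alone, where 11 of 287 such genes were called lower. For RasV12 with EP3037 over RasV12 with hsrω RNAi it was -0.48, larger in size than the 0.42 here, and 49 of 287 were called lower. The shortest class did not always mirror the longest. Under 500 nt the median was 0.34 for RasV12 alone over control, so its shortest and longest classes both lay above 0. For RasV12 with hsrω RNAi over RasV12 alone the median was -0.37 under 500 nt and went up with each class. These comparisons share samples. No value of RNA integrity or fragment size was analysed here, and the part of such differences in the length pattern was not tested.

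**Figure D4:**
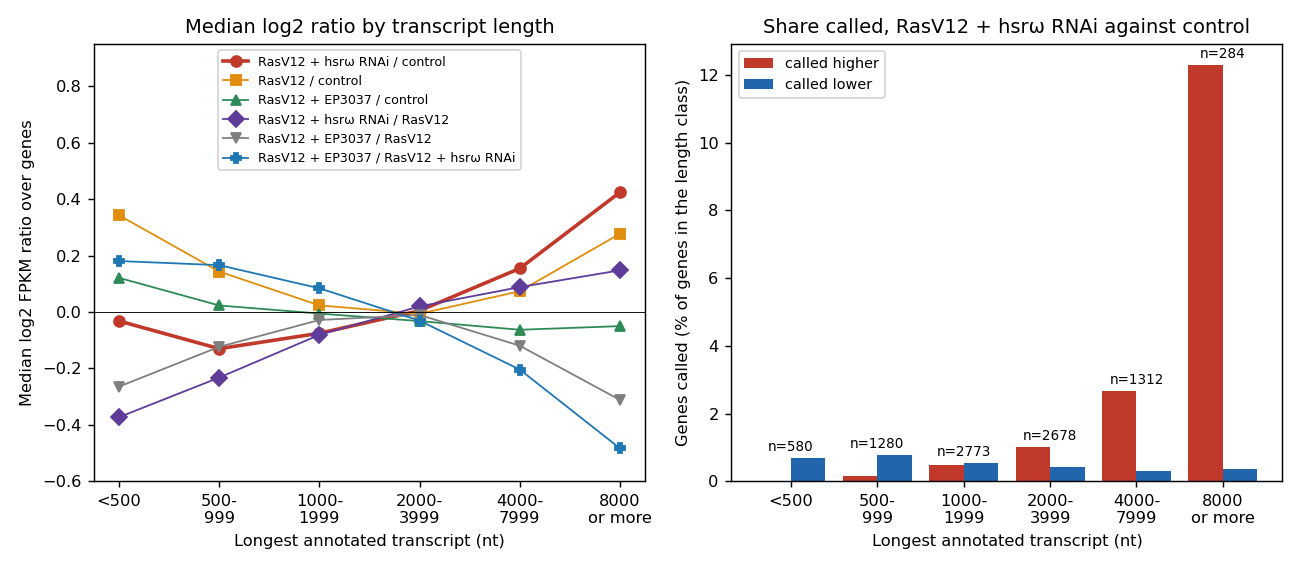
Left, median log2 FPKM ratio (vertical) in 6 classes of longest annotated transcript in nt (horizontal) for the 6 comparisons, 1 point per class. Right, share of genes in each class called higher (red) or lower (blue) in RasV12 with hsrω RNAi against control, with the number of genes above the bars; the share of risers reaches 12.3% at 8000 nt or more.

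**Figure D5:**
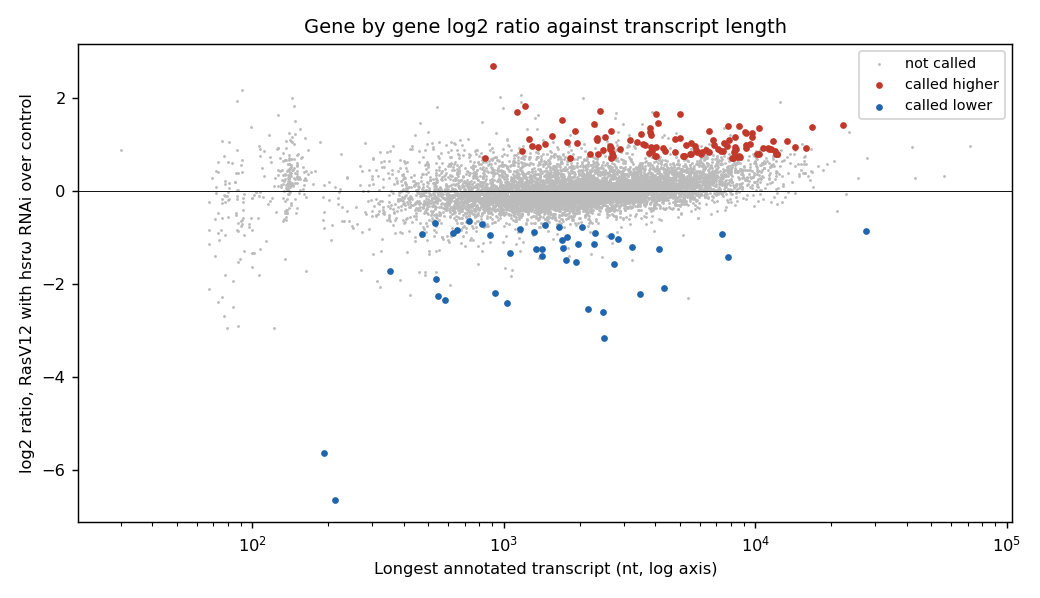
log2 ratio of RasV12 with hsrω RNAi over control (vertical) against the longest annotated transcript in nt (horizontal, log axis) for 8907 genes, 1 point per gene, with called rises in red and called falls in blue. Risers lie mostly to the right, with a median of 5252.5 nt, and fallers mostly to the left, with a median of 1656 nt.

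By chromosome arm, 38 of the 2111 genes on 3R rose (1.8%), the arm that carries hsrω, Ras85D and dco, compared with 24 of 1482 on the X (1.62%), 20 of 1863 on 2R (1.07%), 18 of 1791 on 3L (1.01%) and 15 of 1612 on 2L (0.931%). These shares were not tested against each other. Falls took 0.31% to 0.67% of the genes on these arms. Among the 82 genes of chromosome 4 none rose, 2 fell, bt and CG31997, and the median log2 ratio was -0.22.

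Some called genes were neighbours, with at most 5 kb between them. The organic cation transporter genes Orct2 and Orct on 3R (24273029 to 24278792) both rose, from 8.22 to 14.4 FPKM (q = 0.024 in the authors' deposited table) and from 2.29 to 5.06 FPKM (q = 0.014 in that deposited table). Dlc90F, a dynein light chain gene, and CG18600 on 3R (18299229 to 18301728) both fell, from 192 to 117 FPKM (q = 0.024 in that deposited table) and from 47.9 to 18.0 FPKM. On 3L (2717615 to 2768392) Mrtf rose while Non2, whose start lies 462 bp away, fell from 316 to 170.4 FPKM.

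A run of 6 genes on 3L between 22643881 and 22649287, CR45381, CG33766, CG33767, CG33768, CG33769 and CG33770, was listed at 0 in all 3 RasV12 groups. In the control they were at 1.42, 1.77, 1.21, 0.841, 1.68 and 1.01 FPKM, and all 6 were called. These genes are outside the 8941, which need 1 FPKM in both groups.

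Outside the 1 FPKM rule 27 more genes were called among 2011 rows with status OK, beside 1.8% called within the rule. They were 7 higher and 20 lower, of which 12 were listed at 0 with hsrω RNAi and 2 at 0 in the control. The adjacent cytochrome P450 genes Cyp4p2 and Cyp4p1 had the highest levels among those that rose. Cyp4p2 went from 0.470 to 40.4 FPKM and was at 44.8 FPKM in RasV12 alone and 48.9 FPKM with EP3037. Cyp4p1 went from 0.454 to 11.3 FPKM and was at 10.4 and 12.6 FPKM in the same groups (q = 0.0359 in the authors' deposited table). In the other direction, CG32364, now named tut, went from 8.32 to 0.917 FPKM, with 3.71 FPKM in RasV12 alone and 2.26 FPKM with EP3037. For Cyp4p2 and Cyp4p1 the control stood apart from all 3 RasV12 groups. The 27 P450 genes within the rule had no call.

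The threshold of 1 FPKM lay between CG12229, at 1.27 and 1.00 FPKM, and jp, at 1.24 and 0.999 FPKM. At the q threshold the last 5 called genes had q = 0.0469 and the next 2 had q = 0.0509 in the authors' deposited table.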

How the data were processed

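Total RNA of eye discs was made into stranded, ribosomal RNA-depleted libraries and sequenced as 50 bp read pairs, per the labels' protocols. Cuffdiff 2.1.1, Cufflinks, Bowtie and TopHat were used with the build dm6, per the submitters' processing notes; what else was run, on which annotation and with which strand setting, was not given in the sources used here. In all, the authors deposited 6 tables, 1 per pair of groups, each with 1 pooled FPKM value per gene and group. The authors' p-value and q-value stand in each row, per the file headers, and the deposited q equals, to within 1.56e-05, the Benjamini-Hochberg value over the 65927 tests of the 6 tables together. The hsrω RNAi group entered Cuffdiff with 4 inputs for 3 samples, since 1 sample is listed as a pair of inputs. Of 15904 rows, 10952 had status OK.

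From these, log2 ratios of the plain FPKM were computed in Python 3.11.15 with pandas 2.3.3, and the deposited q was used as the test. With pooled values no test of another kind, interval or detection limit could be computed. Locus fields in the tables count starts from 0 and span whole transcript bundles, so printed positions are those of Ensembl release 115, to which 15589 rows were matched by symbol, synonym or locus. Reads of overlapping genes, antisense genes and close copies are uncertain. Transcript length is the longest annotated transcript, and its trend is the running median over 20 bins of equal gene number, tested on simulated data.

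Gene lists, 45 in number, were written from general knowledge, and the genes compared and the lists were chosen with earlier results of these data known. After values were seen, 3 slips were corrected: Fbp1 was taken off the glycolysis list, fln off the fat body list and the P450 reductase gene Cpr off the cuticle list. The rule for naming took sev, Ras85D and Hsromega, then the 12 genes that rose most and the 12 that fell most among called single genes, up to 6 called genes per list (lowest q, then largest ratio) or up to 2 with the lowest p where a list had no call, and up to 4 called genes under 1 FPKM in a group. Genes shown beyond this rule, other list members without a call among them, were chosen after their values were seen. No sequence is shown.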

Additional observations from a re-analysis of the deposited data

How the results depend on the processing

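With the length trend subtracted, the log2 ratio of Dcr-1, which was not called, moved from 0.26 to -0.01. A q threshold of 0.01 left 71 genes higher and 30 lower, and a minimum change of 2-fold left 45 higher and 30 lower. A minimum of 5 FPKM left 30 lower. Leaving out the lists of other tissues, chosen after seeing the data, left 28 lower. The other alternatives moved both counts by less than 1.5 times: no FPKM minimum, single-gene rows, adjustment within this comparison and transcripts of 500 nt or more. Adjustment within this comparison kept all 161 calls and added 38, PGRP-LC among the named genes (adjusted p = 0.0367 by Benjamini-Hochberg from the authors' deposited p). No paired analysis was possible because the tables hold 1 pooled value per group, and for the same reason no sample could be left out. Precision at low levels is limited by an unknown read depth, and the doubled input of 1 hsrω RNAi sample could not be removed.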

Other observations

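Some genes that rose outside the gene lists are listed here as values, chosen after they were seen. Signalling ligands among them were ths, an FGF ligand gene, from 12.1 to 24.4 FPKM with 16.3 FPKM in RasV12 alone and 20.1 FPKM with EP3037, and Wnt5, from 14.4 to 24.1 FPKM (q = 0.0284 in the authors' deposited table). Transcription factor genes that rose were zfh1, from 2.21 to 5.35 FPKM, SoxN, from 5.46 to 10.4 FPKM, and klu, from 14.2 to 25.2 FPKM. The RNA-binding gene Atx2 rose 2.20-fold, from 21.4 to 47.0 FPKM, with 34.7 FPKM in RasV12 alone and 20.5 FPKM with EP3037, and cpo rose 2.21-fold, from 20.7 to 45.8 FPKM. The tyrosine hydroxylase gene ple, which starts the synthesis of dopamine and of cuticle pigment, rose 2.52-fold, from 1.39 to 3.50 FPKM (q = 0.024 in the authors' deposited table).

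A further set was alike with hsrω RNAi and with EP3037 and differed from RasV12 alone. CHKov1 was at 20.1 FPKM in the control, 23.3 FPKM in RasV12 alone, 39.9 FPKM with hsrω RNAi and 40.1 FPKM with EP3037. CG18600 was at 47.9 FPKM in both the control and RasV12 alone, 18.0 FPKM with hsrω RNAi and 25.7 FPKM with EP3037. CG31436, under the 1 FPKM rule, was at 4.22 and 4.26 FPKM in the control and RasV12 alone and at 0.342 and 0.535 FPKM with hsrω RNAi and EP3037. The allele dco2 separates the same pairs of groups, so its absence cannot be told apart from hsrω RNAi and EP3037 for these genes.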
